A study of Danio rerio with 6 samples.

Results

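Ribosome biogenesis factors are nucleolar, nuclear and cytoplasmic proteins. They transcribe, cut, modify and fold the precursor of ribosomal RNA (rRNA) and load it with ribosomal proteins. The rule named 58 of them by gene symbol, and 56 were found in the gene column of a table of 23876 zebrafish genes. The other two, utp4 and utp14a, matched no entry under those symbols. By textbook role the 56 were 27 factors of the small ribosomal subunit, 19 of the large subunit, 7 core proteins of small nucleolar ribonucleoproteins (snoRNPs) and 3 general nucleolar proteins. A gene with several transcripts was represented by the 1 most abundant on average in the 6 libraries, the only step of the rule that used measured values. That mean does not use genotype, but the 58 names were put forward with earlier results of these data known, so counts over them are a description and not independent evidence.

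The samples were pools of 50 whole larvae at 7 days post fertilization, kept at 28.5 °C in E3 medium. Of 6 pools, 3 were znf469-KO (homozygous mutants of the line znf469-4del) and 3 were wild type (wt). ZNF469 is the gene mutated in human brittle cornea syndrome, and the series title places it in the synthesis of extracellular matrix. Each pool gave 1 polyadenylated RNA library of paired 150 bp reads. Nothing in the labels says that the pools came from separate clutches or parents, so a p-value here refers to variation among these 6 pools, which may be technical.

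With 1 transcript counted per gene, the znf469-KO libraries held 8111192 to 9576627 reads and the wild type libraries 9187098 to 9683579. The second principal component of 22803 tested genes, with 25.5% of the variance, set znf469-KO pool 2 and wild type pool 1 apart from the other pools of their groups. On the first component, with 43.1%, both of these pools were also the nearest to the other group. Scores on it were -58.6, -24.2 and -64.0 in znf469-KO pools 1 to 3 and 13.7, 60.0 and 73.0 in wild type pools 1 to 3. The transcript of znf469 had normalized read counts of 233, 186 and 209 in znf469-KO pools and 296, 198 and 206 in wild type pools, so its level does not check the labels.

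Making a ribosome starts with RNA polymerase I, which transcribes the long rRNA precursor in the nucleolus. The small subunit processome, a large assembly built on the growing transcript, separates and folds the small subunit rRNA, while other factors shape the large subunit. Box C/D snoRNPs guide methylation and box H/ACA snoRNPs guide the making of pseudouridine in rRNA, and export factors carry both subunits to the cytoplasm for their last steps. The pathway is known for its high activity in growing and dividing cells, and in zebrafish larvae loss of single factors often leaves the liver, pancreas and gut small.

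Transcripts of the ribosome biogenesis factors were higher in znf469-KO larvae across all 4 classes. Of 56 genes, 30 rose, none fell (0) and 26 did not pass the threshold of 0.05 (limma, Benjamini-Hochberg adjusted over 22803 genes). Over all genes tested 2.31% rose and 2.18% fell. Values are normalized read counts, and fold changes are those of znf469-KO over wild type on the scale of log2(value + 1). The median log2 fold change of the 56 was 0.82, against -0.00 over all genes, and 55 of the 56 fold changes were above 0. At an unadjusted p under 0.05, 51 were higher and 0 lower in limma, against 9.03% and 9.17% of all genes. On recovered reads edgeR called 33 higher and 0 lower (all genes 2.23% and 1.95%), and DESeq2 called 42 higher and 0 lower (all genes 3.27% and 3.0%). In 51 genes every znf469-KO pool lay above every wild type pool and in none (0) every one below, patterns that 11.6% and 11.8% of all genes showed. Together the 56 transcripts took 0.588%, 0.608% and 0.683% of the summed values in znf469-KO pools, against 0.375%, 0.340% and 0.341% in wild type pools. The count of 30 became 10 without znf469-KO pool 3 (0.746% of all genes rose), 9 without wild type pool 2 (0.623%) and 17 without wild type pool 3 (1.05%). Without znf469-KO pool 1, znf469-KO pool 2 or wild type pool 1 it was 22, 25 and 30, where 1.21%, 1.95% and 3.57% of all genes rose. At least 55 fold changes were above 0 with any 1 pool left out. Without both pools that stood apart 44 rose, where 11.2% of all genes did. Those pools were also the nearest to the other group on the first principal component. Leaving them out widens the gap between the groups, so the larger count is no independent check. In that setting 9 of 22 circadian clock genes also rose, against 1 with all 6 pools. Genotype and clock gene levels cannot be told apart there. The difference between the classes was not tested.

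**Figure D1:**
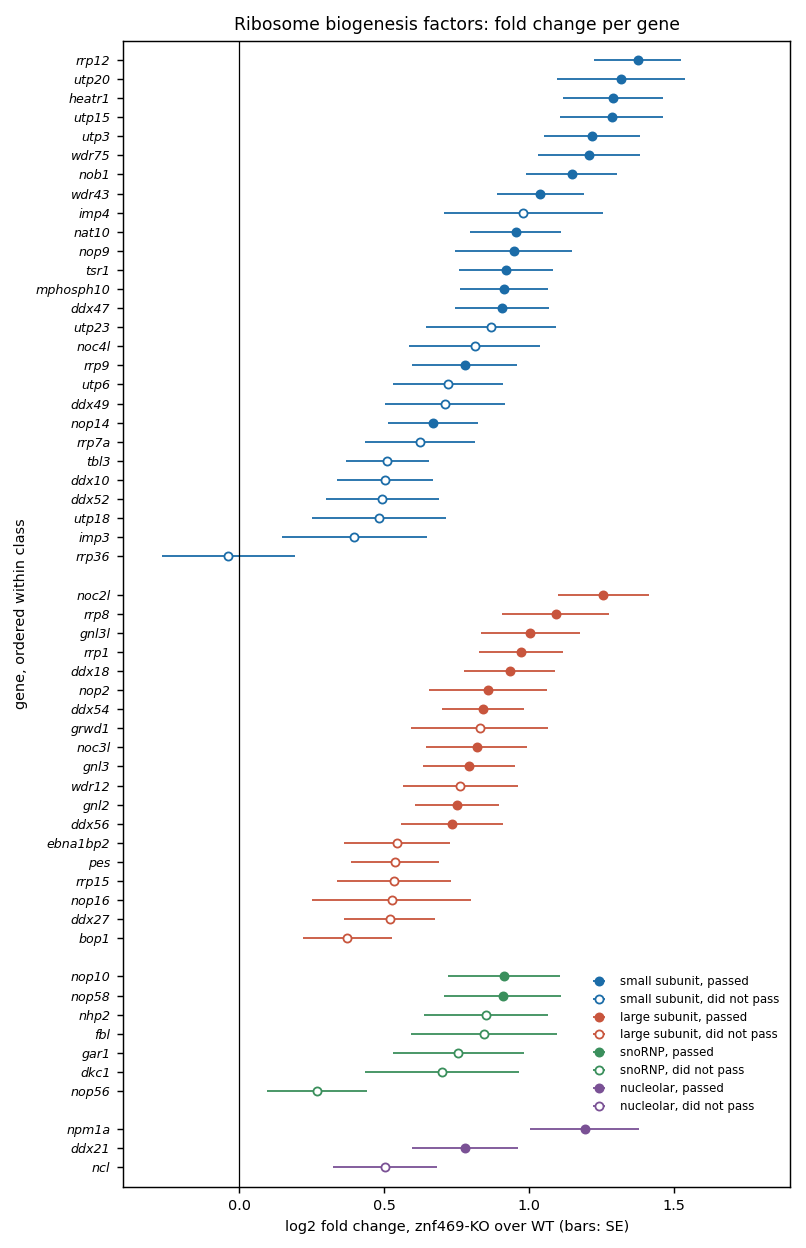
Log2 fold change (znf469-KO over wild type, x axis) of each of the 56 ribosome biogenesis factors (y axis), grouped by class and ordered by size, with bars for the SE and filled points for genes that passed the adjusted threshold of 0.05 in limma. All points but rrp36, at -0.04, lie right of 0, and rrp12 is the highest at 1.37.

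Small subunit factors were higher by a median log2 fold change of 0.91. Of the 27 measured, 15 rose, 0 fell and 12 did not pass, and in all but rrp36 the groups did not overlap. Over all genes 2.31% rose and 11.6% had every mutant pool above every wild type pool. Limma had 24 higher and 0 lower at an unadjusted p under 0.05. With adjustment, edgeR called 16 higher and 0 lower, and DESeq2 20 higher and 0 lower. The transcript of rrp12, a HEAT-repeat protein that takes part in the export of new subunits, had normalized read counts of 3403, 3387 and 4096 in znf469-KO pools and 1407, 1316 and 1464 in wild type pools. Its lowest mutant value was thus above 2 times its highest wild type value, and its log2 fold change was 1.37 (SE 0.15, limma adjusted p = 0.00107). The large HEAT-repeat protein gene heatr1, whose product belongs to the UTP-A complex that is first to bind the growing precursor, stood at 1232, 1086 and 1326 in znf469-KO pools and 610.0, 447 and 443 in wild type pools. This was a rise of 1.29 (SE 0.17, limma adjusted p = 0.00324), with wild type pool 1 the highest of its group and mutant pool 2 the lowest of its own. Values of utp20, another long HEAT-repeat protein of the processome, were 699.8, 660.5 and 827 in znf469-KO pools and 412, 261 and 229.6 in wild type pools, with the same 2 pools nearest to each other (1.31, SE 0.22, limma adjusted p = 0.0100). The call of utp20 ended without znf469-KO pool 3 or wild type pool 2 (highest limma adjusted p = 0.0710).

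Other proteins of the early processome rose too. For utp3, a nucleolar protein of the processome, values were 434, 543 and 541 in znf469-KO pools and 233, 199 and 218 in wild type pools, a log2 fold change of 1.21 (SE 0.17, limma adjusted p = 0.00353). Further UTP-A genes rose, with utp15 at 1.28, wdr75 at 1.21 and wdr43 at 1.04. The transcript of wdr43 was at 2294, 2842 and 2581 in znf469-KO pools and 1166, 1251 and 1331 in wild type pools. The scaffold gene mphosph10 was at 446, 498 and 494 in znf469-KO pools and 244, 244 and 275 in wild type pools, and rose by 0.91 (SE 0.15, limma adjusted p = 0.00966). Among other early factors that rose, rrp9, a protein of the snoRNP that guides the first cuts, was at 0.78 and nop14 at 0.67. The RNA-binding protein nop9 rose by 0.95 and the helicase ddx47 by 0.91. The call of nop14 ended with any 1 pool left out, and that of rrp9 with any pool but wild type pool 1. Those of nop9 and ddx47 ended without znf469-KO pool 3 or wild type pool 2, and that of nop9 also without wild type pool 3.

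The acetyltransferase gene nat10, which acetylates cytidines of the small subunit rRNA, was at 495, 546 and 541 in znf469-KO pools and 300.3, 238 and 280.1 in wild type pools (0.95, SE 0.16, limma adjusted p = 0.00946). The endonuclease nob1 makes the last cut of the small subunit rRNA in the cytoplasm, and its transcript was at 945, 1061 and 957 in znf469-KO pools and 437, 392 and 515 in wild type pools. That was a rise of 1.15 (SE 0.16, limma adjusted p = 0.00353), with a gap between the groups. Another late factor, tsr1, a GTPase-like protein of late small subunit precursors, rose by 0.92. Of the 15 small subunit calls, those of rrp12, heatr1, nob1, utp3, utp15, wdr43 and wdr75 passed with each pool left out in turn, and the number that rose was 7 without znf469-KO pool 3 or without wild type pool 2.

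The 12 small subunit genes that did not pass had log2 fold changes from -0.04 to 0.98. The RNA-binding protein gene imp4 was at 85.3, 156 and 91.7 in znf469-KO pools and 52.9, 52.96 and 55.4 in wild type pools. Mutant pool 2 stood far above the other mutant pools here (0.98, SE 0.27, limma adjusted p = 0.0765). Its partner imp3 was at 57.1, 70.0 and 81.4 in znf469-KO pools and 51.0, 49.0 and 56.4 in wild type pools, the fewest reads of any of the 56 genes (50 in 1 library). For rrp36, a factor of early cleavage, the values were 82.4, 133 and 102 in znf469-KO pools and 107, 101 and 112 in wild type pools, which overlap (-0.04, SE 0.23, limma adjusted p = 0.956). The other nine, utp6, utp18, utp23, noc4l, tbl3, rrp7a, ddx10, ddx49 and ddx52, lay between 0.48 (utp18) and 0.87 (utp23), and in each of them every mutant pool was above every wild type pool.

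**Figure D2:**
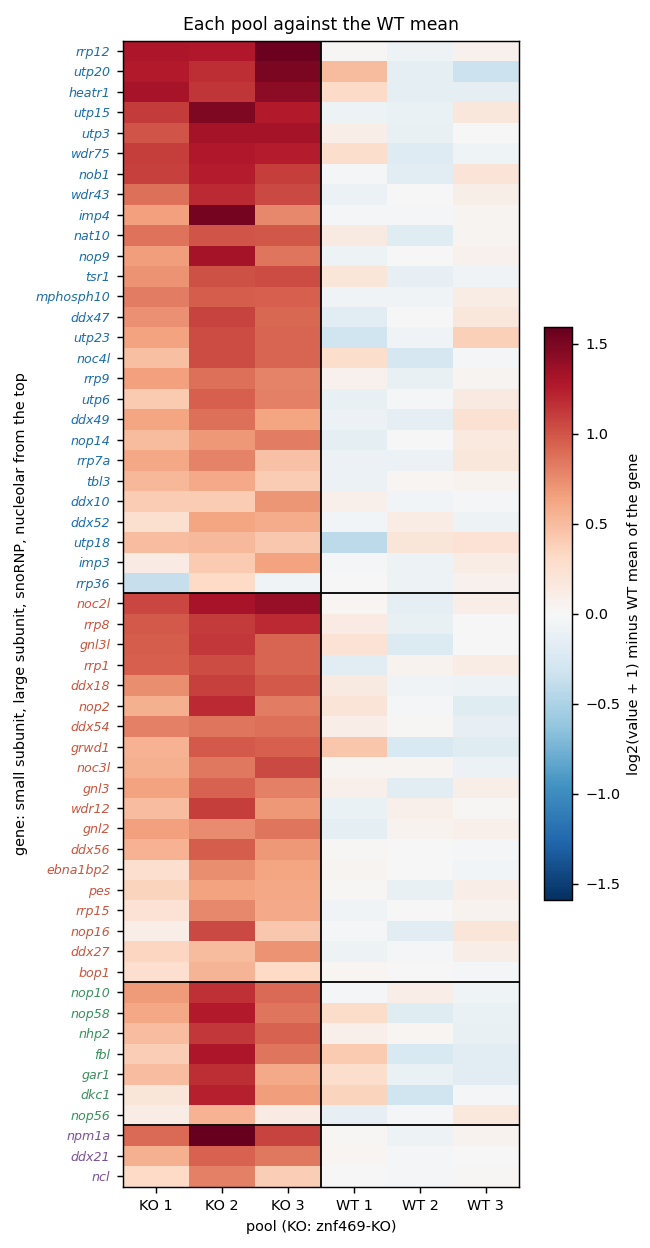
Values of the 56 genes (rows, by class from the top and by fold change within a class) in each pool (columns, znf469-KO left of wild type), as log2(value + 1) minus the wild type mean of the gene. The mutant columns are red in nearly all rows, most evenly for the upper small subunit genes, while in the snoRNP rows mutant pool 2 is the darkest and wild type pool 1 is also raised in fbl, dkc1 and gar1.

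The processome factors were also grouped by subcomplex, after the values were seen. In UTP-A, cirh1a, the older symbol of utp4 and so not among the 56, was at 981, 1264 and 1191 in znf469-KO pools and 475, 508 and 555 in wild type pools (1.15, SE 0.16, limma adjusted p = 0.00350). With it, 5 of 6 UTP-A genes rose (median 1.18), and only nol11 did not pass, at 0.12. Over all genes 2.31% rose. In UTP-B, which joins the processome after UTP-A, 1 of 6 rose (2 with edgeR, 5 with DESeq2): wdr3, at 0.80, whose call ended without znf469-KO pool 3, wild type pool 2 or wild type pool 3. Its other members tbl3, utp6, utp18, wdr36 and pwp2h were at 0.51, 0.72, 0.48, 0.61 and 0.73, and the median was 0.66. The difference between the 2 complexes was not tested. In all 6 UTP-B genes every mutant pool lay above every wild type pool, a pattern that 11.6% of all genes showed.

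Large subunit factors were higher by a median of 0.79 on the log2 scale. Of 19 genes, 11 rose, 0 fell and 8 did not pass, and the groups were apart in 18. Over all genes 2.31% rose and 11.6% had every mutant pool above every wild type pool. Limma had 18 higher and 0 lower at an unadjusted p under 0.05. With adjustment, edgeR called 12 higher and 0 lower, and DESeq2 14 higher and 0 lower. The transcript of noc2l, of the NOC complex that accompanies precursors through the nucleus, was at 949.9, 1135 and 1196 in znf469-KO pools and 466, 412 and 492 in wild type pools. It had the largest rise of the class, 1.26 (SE 0.16, limma adjusted p = 0.00215), and its partner noc3l rose by 0.82. Values of rrp1, an early nucleolar factor, were 1475, 1562 and 1456 in znf469-KO pools and 677, 790.4 and 831 in wild type pools (0.97, SE 0.15, limma adjusted p = 0.00557). The mutant values lay close together, and wild type pool 1 was the lowest of its group. The number that rose was 2 without znf469-KO pool 3 or without wild type pool 2, namely noc2l and rrp1. It was 7 without znf469-KO pool 1 and 5 without wild type pool 3.

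Methyltransferases, helicases and GTPases made up most of the other calls. The rRNA methyltransferase gene rrp8 was at 189, 208 and 219.5 in znf469-KO pools and 105, 88.3 and 95.0 in wild type pools (1.09, SE 0.19, limma adjusted p = 0.0105), and nop2, a cytosine methyltransferase of the large subunit rRNA, rose by 0.86. All 3 nucleolar GTPases of the GNL family rose: gnl3l by 1.003, gnl3 (nucleostemin) by 0.79 and gnl2 by 0.75. The transcript of gnl2 was at 1685, 1809 and 1943 in znf469-KO pools and 973, 1121 and 1139 in wild type pools. The helicases ddx18, ddx54 and ddx56 rose by 0.93, 0.84 and 0.74. The calls of these helicases and GTPases all ended without znf469-KO pool 3 and without wild type pool 2. That of ddx56 ended with any 1 pool left out, and that of nop2 with any pool but wild type pool 1. Over all classes there were 9 DEAD-box helicases, of which 5 rose and 4 (ddx10, ddx27, ddx49 and ddx52) were at 0.49 to 0.71 without passing. In all 9 each mutant pool was above each wild type pool. Over all genes 2.31% rose and 11.6% had their pools apart in this way.

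The PeBoW complex, which joins pes (pescadillo, first described from a zebrafish mutant), bop1 and wdr12 and is needed to process the large subunit rRNA, had no call (0 of 3 in limma, 3 at an unadjusted p under 0.05, 1 with edgeR and 2 with DESeq2). The values of wdr12 were 219, 334 and 251 in znf469-KO pools and 144, 165 and 157 in wild type pools (0.76, SE 0.20, limma adjusted p = 0.0606). For pes they were 659.5, 803 and 785 in znf469-KO pools and 520.3, 474 and 551 in wild type pools (0.54, SE 0.15, limma adjusted p = 0.0809). For bop1 they were 386, 469 and 401 in znf469-KO pools and 329.6, 321 and 316 in wild type pools (0.37, SE 0.15, limma adjusted p = 0.228). None of the 3 overlapped between groups, and bop1 was the smallest difference of the class. Of all genes 11.6% had every mutant pool above every wild type pool. The chaperone gene grwd1 and the factors ebna1bp2, rrp15, nop16 and ddx27 were at 0.83, 0.54, 0.53, 0.53 and 0.52 without passing, and nop16 overlapped.

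**Figure D3:**
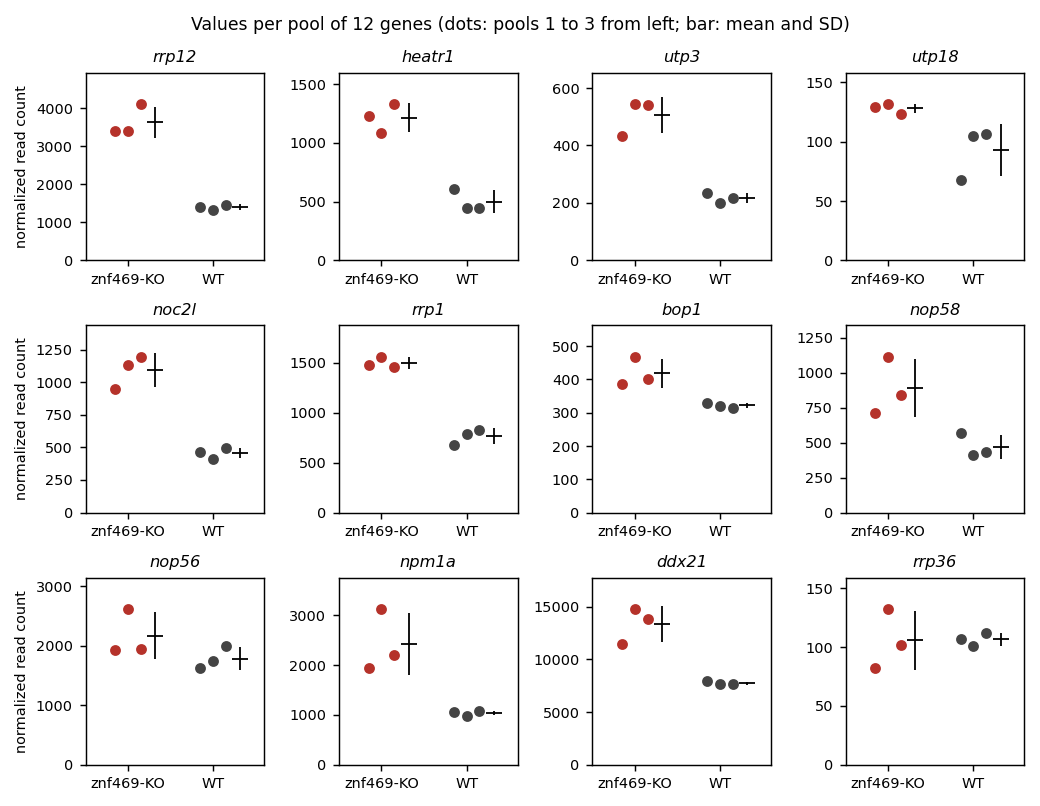
Normalized read counts (y axes, each from 0) of 12 of the genes in the 3 znf469-KO pools (red) and the 3 wild type pools (grey), with the mean and SD beside each group. The groups are apart in all panels but nop56 and rrp36, and the mutant pools are most spread in nop58, nop56, npm1a and rrp36, where pool 2 is the highest.

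The snoRNP core proteins were shifted by a similar median, 0.84, with a wide spread between pools. Of 7 genes 2 rose, 0 fell and 5 did not pass, where 2.31% of all genes rose and 2.18% fell. Limma had 6 higher and 0 lower at an unadjusted p under 0.05. With adjustment, edgeR called 3 higher and 0 lower, and DESeq2 5 higher and 0 lower. In limma the number that rose was 3 without wild type pool 1 and 1 without znf469-KO pool 1 or 2. It was 0 without znf469-KO pool 3 or wild type pool 2 or 3. Among box H/ACA proteins, nop10 was at 194, 273 and 226 in znf469-KO pools and 118, 130.4 and 115 in wild type pools, a rise of 0.91 (SE 0.19, limma adjusted p = 0.0268). Its partner nhp2 was at 157, 246 and 215 in znf469-KO pools and 119, 115 and 103 in wild type pools, just outside the threshold (0.85, SE 0.21, limma adjusted p = 0.0528). The pseudouridine synthase gene dkc1, whose human counterpart is mutated in dyskeratosis congenita, was at 356, 736 and 492 in znf469-KO pools and 398, 249 and 303 in wild type pools. Mutant pool 1 lay below wild type pool 1, so the groups overlapped (0.70, SE 0.27, limma adjusted p = 0.191), and gar1 was at 0.76 without passing.

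Among box C/D proteins, the scaffold gene nop58 was at 714, 1116 and 842 in znf469-KO pools and 571, 409 and 433 in wild type pools, and rose by 0.91 (SE 0.20, limma adjusted p = 0.0328). Its close relative nop56 was at 1929, 2618 and 1945 in znf469-KO pools and 1622, 1739.7 and 1989 in wild type pools, which overlap (0.27, SE 0.17, limma adjusted p = 0.459). The methyltransferase fbl (fibrillarin) was at 449, 837 and 616 in znf469-KO pools and 456, 288 and 304 in wild type pools. Mutant pool 1 and wild type pool 1 had nearly the same fbl value (0.84, SE 0.25, limma adjusted p = 0.0949).

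Of the general nucleolar proteins, npm1a (nucleophosmin, a histone and ribosome chaperone) was at 1945, 3132 and 2196 in znf469-KO pools and 1051, 987 and 1083 in wild type pools. It rose by 1.19 (SE 0.19, limma adjusted p = 0.00757), and the call ended without wild type pool 2 (limma adjusted p = 0.0615). Its sequence relatives moved less or in the other direction and did not pass: npm3 was at 0.47 and npm1b, at 61.8, 33.4 and 33.0 in znf469-KO pools and 61.4, 71.6 and 82.1 in wild type pools, at -0.79. The helicase ddx21, which binds both rRNA genes and snoRNAs, was at 11493, 14788 and 13814 in znf469-KO pools and 7909, 7629 and 7702 in wild type pools (0.78, SE 0.18, limma adjusted p = 0.0400). Its call ended when any pool but znf469-KO pool 2 was left out. Nucleolin (ncl), which binds rRNA precursors, was at 6009.7, 8465 and 6348 in znf469-KO pools and 4843, 4784 and 4894 in wild type pools (0.50, SE 0.18, limma adjusted p = 0.162). The wild type values of these 3 genes lay close together, and the mutant values were led by pool 2.

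The mutant pools were not alike. Of the 56 genes, 43 had their highest value in znf469-KO pool 2, 13 in znf469-KO pool 3 and 0 in znf469-KO pool 1. Over all genes 27.3%, 11.4% and 11.0% did, and 18.2%, 12.5% and 19.5% were highest in wild type pools 1, 2 and 3. These shares are not a like comparison, since in 51 of the 56 genes every mutant pool lay above every wild type pool. On the log2 scale, pool 2 exceeded the mean of mutant pools 1 and 3 in 50 of the 56 by a median of 0.23, against 60.1% of all genes and a median of 0.15. The median of this offset was 0.16 in small subunit, 0.21 in large subunit and 0.53 in snoRNP genes, all 7 of which were above 0. It was below 0 in rrp12, heatr1, utp20, ddx10, ddx27 and gnl2. In wild type, pool 1 exceeded the mean of pools 2 and 3 by a median of 0.03 over the 56, with the largest offset in utp20 (0.75) and the lowest in utp18 (-0.63). The offset was above 0 in 32 of the 56, against 46.9% of all genes and a median of -0.04. Pool 1 also led in the snoRNP genes fbl (0.62), dkc1 (0.53), nop58 (0.44) and gar1 (0.42). It led likewise in grwd1 (0.66), heatr1 (0.45), noc4l (0.43) and wdr75 (0.41) of other classes. The snoRNP genes nop56 (-0.20) and nop10 (-0.05) were below 0.

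**Figure D4:**
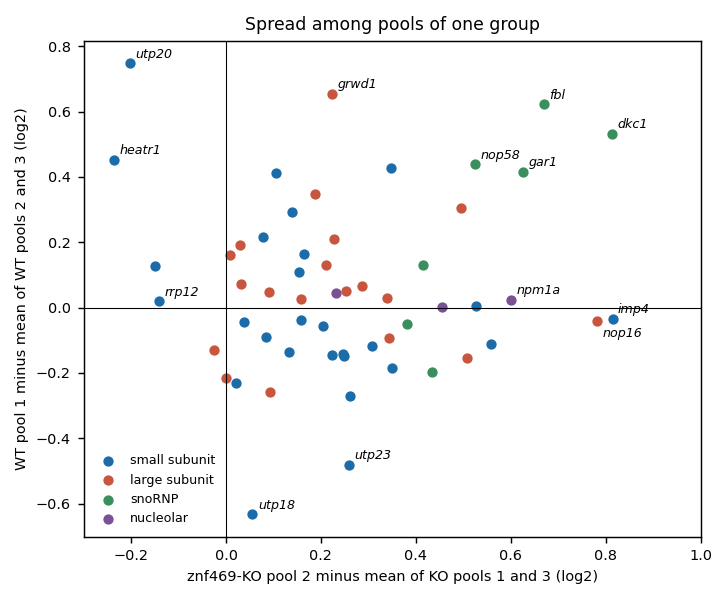
For each of the 56 genes, the log2 difference between znf469-KO pool 2 and the mean of mutant pools 1 and 3 (x axis) and between wild type pool 1 and the mean of wild type pools 2 and 3 (y axis), coloured by class. The snoRNP genes fbl, dkc1, gar1 and nop58 lie to the upper right, heatr1 and utp20 to the upper left, and utp18 and utp23 at the bottom. The large subunit gene grwd1 is also near the top.

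Of 106 further genes of the pathway, listed by role and not among the 56, 28 rose, 0 fell and 78 did not pass. Over all genes 2.31% rose and 2.18% fell. Limma had 63 higher and 1 lower at an unadjusted p under 0.05. With adjustment, edgeR called 32 higher and 0 lower, and DESeq2 44 higher and 0 lower. The median log2 fold change was 0.61, with 95 above 0 and 11 below. In limma the number that rose was 14 without znf469-KO pool 1 (1.21% of all genes) and 2 without znf469-KO pool 3 (0.746%). It was 1 without wild type pool 2 (0.623%) and 10 without wild type pool 3 (1.05%). Without both pools that stood apart it was 47, where 11.2% of all genes rose. In 69 of the 106 every mutant pool was above every wild type pool, and in 2 every mutant pool was below. These 2 were nol9 at -0.41 and senp3b at -0.40, neither of which passed. Over all genes 11.6% lay above and 11.8% below in this way.

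Among 30 further small subunit factors 11 rose, with a median of 0.68. The number was 5 without znf469-KO pool 1, 1 without znf469-KO pool 3, 0 without wild type pool 2 and 6 without wild type pool 3. The kinase gene riok2, which acts on late cytoplasmic precursors, was at 472, 635 and 571 in znf469-KO pools and 192, 235 and 292 in wild type pools (1.23, SE 0.20, limma adjusted p = 0.00795). The chaperone tsr2, the processome protein esf1 and aatf rose by 1.05, 1.03 and 1.02. Among 38 further large subunit factors 12 rose, with a median of 0.63, and without the same 4 pools 6, 1, 1 and 2 rose. The helicase ddx24 was at 792, 955 and 919 in znf469-KO pools and 369, 350.1 and 369 in wild type pools (1.29, SE 0.15, limma adjusted p = 0.00138). That was the only call among the 106 to pass with each pool left out in turn. The export adaptor nmd3 was at 1213, 1525 and 1453 in znf469-KO pools and 729.9, 784 and 741 in wild type pools (0.89, SE 0.15, limma adjusted p = 0.00970), and ftsj3 and rbm28 rose by 0.80 and 0.75.

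Transcription of rRNA genes by RNA polymerase I was represented by 13 genes, of which 2 rose (all genes 2.31%). Their median log2 fold change was 0.67, with 10 above 0 and 3 below. Limma had 8 higher and 0 lower at an unadjusted p under 0.05. With adjustment, edgeR and DESeq2 each called 4 higher and 0 lower. In 8 of the 13 every mutant pool was above every wild type pool, as in 11.6% of all genes. The largest subunit gene polr1a was at 1031, 962 and 1129 in znf469-KO pools and 619, 456 and 442 in wild type pools (1.05, SE 0.17, limma adjusted p = 0.00855), and the subunit gene polr1f, under its older symbol twistnb, rose by 1.04. The initiation factor gene rrn3 was at 0.63 without passing, and ubtf, the factor that marks active rRNA genes, was at 1081, 944 and 929.6 in znf469-KO pools and 1033, 1041 and 1046 in wild type pools (-0.08, limma adjusted p = 0.816). In the RNA exosome, which trims rRNA precursors, 3 of 14 rose: exosc10 by 0.81, exosc8 by 1.02 and dis3 by 0.92. The polymerase and exosome calls all ended without znf469-KO pool 3 and without wild type pool 2. Of 11 genes that assemble snoRNPs none rose (0 in limma, 2 at an unadjusted p under 0.05, and 0 with edgeR or DESeq2), and the smallest p was that of snu13b at 0.73 (SE 0.25, limma adjusted p = 0.138).

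Of 14 genes of the MYC family, which encode growth-related transcription factors and their partners, 0 rose and 0 fell in limma (0 higher and 1 lower at an unadjusted p under 0.05, and 0 called with edgeR and DESeq2), and the median was -0.08, over a range from -0.57 (mycla) to 1.12 (mxd1). The values of myca were 514, 629 and 562 in znf469-KO pools and 540.1, 573 and 676 in wild type pools, and those of mycb were 628, 837 and 784 in znf469-KO pools and 963, 758 and 977 in wild type pools. The smallest p was that of mycla, at -0.57 (SE 0.25, limma adjusted p = 0.264). The list joins myc genes with mxd, mnt, max and other genes, so the list median is no measure of MYC activity, which was not tested. Of 13 targets of p53, the factor that is stabilized when ribosome assembly fails, 0 passed in limma (1 higher and 1 lower at an unadjusted p under 0.05, 0 with edgeR and 1 lower with DESeq2). Their median was 0.21, with 8 above 0 and 5 below, over a range from -0.72 to 0.70. Among those below 0 were mdm2 at -0.18 and sesn3 at -0.72 (SE 0.23, limma adjusted p = 0.117). Without both pools that stood apart, where 11.2% of all genes rose and 10.8% fell, 1 MYC family gene rose and 3 fell, and 0 p53 targets rose and 1 fell, with a p53 target median of -0.12. Without wild type pool 1 alone, where 3.57% of all genes rose and 2.33% fell, 1 MYC family gene rose and 1 p53 target fell.

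**Figure D5:**
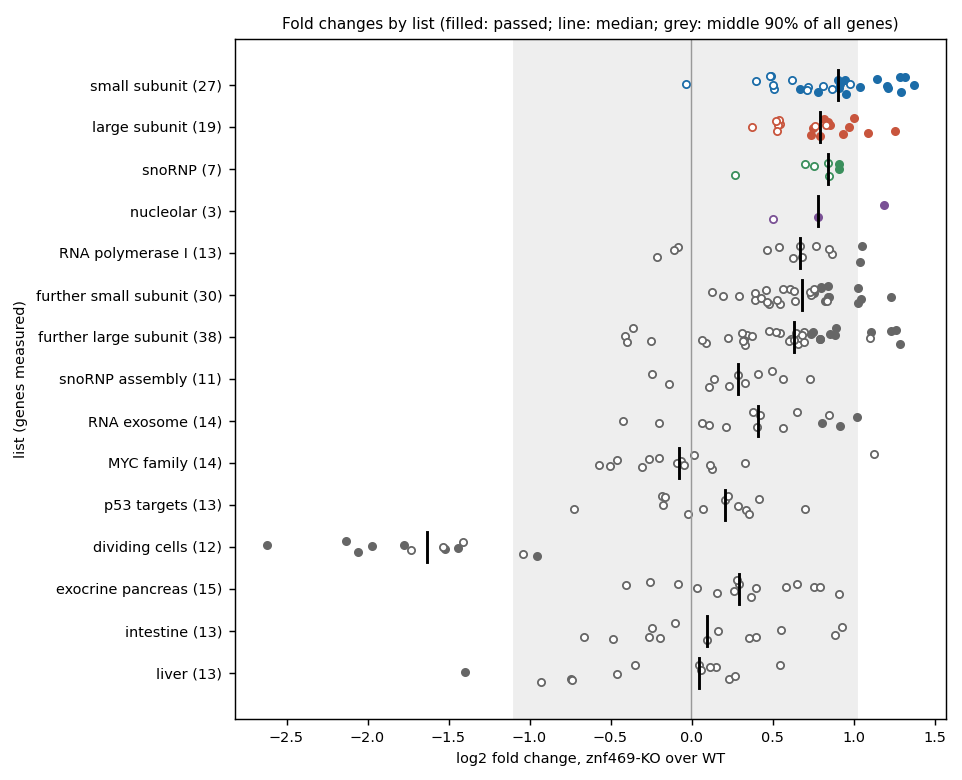
Log2 fold changes (x axis) of single genes in the 4 classes, in further pathway lists and in marker lists (y axis, with the number of genes measured), with filled points for genes that passed in limma, a black line for the median of each list and grey shading from the 5th to the 95th percentile of all genes (-1.10 to 1.02). The ribosome biogenesis lists lie mostly right of 0, the MYC family and p53 targets around 0, and all 12 genes of dividing cells left of it.

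Genes of dividing cells were lower in the same pools. Of 12 markers 8 fell, 0 rose and 4 did not pass in limma, with a median of -1.63. Over all genes 2.18% fell and 2.31% rose. Limma had 12 lower and 0 higher at an unadjusted p under 0.05. With adjustment, edgeR called 8 lower and 0 higher, and DESeq2 10 lower and 0 higher. Summed values of the 12 markers were 564 to 1057 in znf469-KO pools and 2087 to 2359 in wild type pools, and no marker was at 0. In limma the number that fell was 6, 12 and 5 without znf469-KO pools 1, 2 and 3, where 0.908%, 3.38% and 0.75% of all genes fell. It was 7, 4 and 6 without wild type pools 1, 2 and 3, where 2.33%, 0.447% and 0.842% of all genes fell. The transcript of mki67 was at 127, 154 and 82.5 in znf469-KO pools and 420.2, 407 and 388 in wild type pools. Among the digestive organs, 0 of 15 markers of exocrine pancreas and 0 of 13 of intestine passed in limma (5 higher and 0 lower, and 3 higher and 1 lower, at an unadjusted p under 0.05; 0 with edgeR; 3 higher, and 2 higher and 1 lower, with DESeq2). Their medians were 0.29 and 0.10, and the pancreas markers summed to 109569 to 188410 in znf469-KO pools and 82719.6 to 128668 in wild type pools, which overlap. Of 13 liver markers 2 fell, with a median of 0.04. Markers of skeletal muscle, epidermis and erythrocytes each had 2 genes that fell (of 10, 7 and 4), 1 of 9 neuron markers fell, and none of the 7 lens markers passed (0 in limma, 1 lower at an unadjusted p under 0.05, 0 with edgeR and DESeq2). With 1 pool left out, the numbers that fell were 2 in muscle, and ran from 0 to 2 in liver and erythrocytes, from 1 to 4 in epidermis and from 0 to 1 in neurons. In the same settings 0.447% to 3.38% of all genes fell. Summed values of the muscle markers were 393267 to 594602 in znf469-KO pools and 610241 to 782339 in wild type pools. Those of the epidermis were 52137.3 to 100926 in znf469-KO pools and 131974 to 156539 in wild type pools. The part of these differences in the higher levels of ribosome biogenesis factors was not tested. In whole larvae, more cells of a type and more RNA per cell cannot be told apart.

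Genes of the circadian clock differed within the groups, with per3 at 354, 95.9 and 518 in znf469-KO pools and 564, 88.3 and 86.1 in wild type pools. Of 22 clock genes 1 rose in limma and 0 fell, against 2.31% and 2.18% of all genes. This was clockb, at 0.71 (SE 0.16, limma adjusted p = 0.0314), whose call ended without znf469-KO pool 1 or 3 or wild type pool 2 or 3. The mean log2 value of the 22 was 9.16, 8.76 and 9.62 in znf469-KO pools and 9.40, 8.73 and 8.75 in wild type pools. It blends opposite shifts, as wild type pool 1 minus the mean of wild type pools 2 and 3 ran from -1.15 to 2.68. Without both pools that stood apart, per3 was at 354 and 518 in znf469-KO pools and 88.3 and 86.1 in wild type pools. In that setting 9 of the 22 clock genes rose and their median was 0.67, against 0.14 with all 6 pools. The part of clock genes in the levels of ribosome biogenesis factors was not tested beyond a covariate. With the clock mean as a covariate 38 of the 56 rose, where 4.22% of all genes did, and the median was 0.80.

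In the authors' deposited table, 48 of the 56 transcripts had a q-value under 0.05, all with a positive log2 fold change, against 4.92% of all genes. The authors' deposited table gave log2 fold changes of 1.38 for rrp12, 1.26 for noc2l and 1.22 for npm1a. The choice of transcript mattered little for this group: 14 of the genes had 31 transcripts in all, and within a gene their log2 ratios of group means differed by at most 0.05. Such transcripts share reads, so they are not separate measurements.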

How the data were processed

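The deposited table holds 1 signal value per transcript and library, which the authors made on the build GRCz11, per the submitters' processing notes. Neither aligner nor counter, strand setting or treatment of shared reads is given in the sources used here. In each library every deposited signal value was a whole multiple of its smallest value to within 0.001, so it was taken as read counts divided by 1 factor per library. The deposited value of 1 read lay near 1 in wild type pool 3 (0.990), but values there were not rounded to whole numbers, as with 443.33 for heatr1. The other deposited columns are, per the file headers, the authors' log2 fold change with p-value and q-value, from a test not named there.

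Here, each gene was its most abundant transcript, tested where at least 3 libraries had a value of 1 or above. All 56 members passed this filter. The test was limma 3.58.1 with an intensity trend on log2(value + 1), a scale that understates the change of low genes, with Benjamini-Hochberg adjustment. Alternatives used edgeR 4.0.16 and DESeq2 1.42.0 on recovered reads. Scripts were tested on simulated data. Members and lists were chosen with earlier results of these data known. Of the further pathway, MYC family and p53 target genes, 133 of 138 were found, some by an older symbol, and of the markers 112 of 115. Named were all members past the threshold, and by rule those with the smallest p, largest, smallest and most abundant of each class, 11 fixed members and 14 pathway genes. Other names, the subcomplexes and the within-group offsets were chosen after their values were seen.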

Additional observations from a re-analysis of the deposited data

How the results depend on the processing

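With another pseudocount, another filter, TMM or total-read scaling, edgeR, DESeq2, summed transcripts or the clock covariate, 27 to 42 ribosome biogenesis factors rose and 0 fell. The share of all genes that rose ran from 2.08% (summed transcripts) to 4.22% (clock covariate) in these settings, with 3.27% for DESeq2. Without both pools that stood apart, which were also the nearest to the other group, 44 rose, where 11.2% of all genes did. In that setting clock genes also differed between the groups. With 1 pool left out, 9 to 30 rose (10 without znf469-KO pool 3, 9 without wild type pool 2, 17 without wild type pool 3) and 0 fell. Of all genes 0.623% to 3.57% rose in these settings. The medians ran from 0.72 to 0.96 for all members, 0.76 to 0.98 for small subunit, 0.72 to 0.87 for large subunit and 0.62 to 1.03 for snoRNP genes. The small subunit median was 0.76 without znf469-KO pool 2 and 0.73 without both pools that stood apart. The cause of these changes was not tested. Among single genes, rrp36 turned to 0.012 with the clock covariate and ran from -0.21 to 0.13 with 1 pool left out. The level of znf469 ran from -0.24 to 0.05 with 1 pool left out and was 0.13 without both pools that stood apart. With the replicate number as a block, 25 rose instead of 30, where 2.16% of all genes rose instead of 2.31%. The labels do not say whether the numbers pair the pools. Same-numbered pools had deviations from their group means that correlated at 0.14, 0.13 and -0.26. With 3 pools per group these correlations cannot decide it. Reads per member and library ran from 50 (imp3) to 13725 (ddx21).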
